A study of Mus musculus with 2 samples.

Results

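Heat shock proteins and their DNAJ partners fold newly made and damaged proteins, and their messenger RNA levels were compared here in sorted stromal cells of mouse bone marrow after transplantation, in the presence or absence of acute graft-versus-host disease (aGVHD). The genes were taken by symbol: 72 protein-coding genes of the 54532 genes in the table are named Hspa, Hspb, Hspd, Hspe or Hsph with a number, Hsp90, or Dnaja, Dnajb or Dnajc with a number. They hold 14 HSP70 and HSP110 genes, 3 HSP90 genes, the 2 genes of the HSP60 and HSP10 chaperonin, 8 genes named as small heat shock proteins, and 4 DNAJA, 13 DNAJB and 28 DNAJC genes. Another 14 rows with such symbols are processed pseudogenes and were left out.

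The study followed bone marrow transplantation in mice. In both groups, female CB6F1 recipients received irradiation as 2 doses of 4.0 Gy, and marrow cells of B6.SJL mice were injected 4 hours later. The BMT group received nothing further, and the aGVHD_V group was also given spleen cells of female C57BL/6 mice, which carry the donor T cells that attack the host. The meaning of the V is not stated. Cells were sorted after depletion of CD45, lineage and CD71 positive cells and of dead cells, and each group is represented by 1 library, so no difference below has a replicate check, and the labels do not say how many mice it holds. In such bulk libraries, fewer cells of a type and less RNA per cell cannot be told apart.

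The libraries held 10869191 (BMT) and 11299834 (aGVHD_V) recovered reads and differed in their cell content. The 12 mesenchymal stromal markers had a summed FPKM (fragments per kilobase of gene and per unit of library size, as deposited) of 629 against 32.7, all 12 lay at least 2-fold lower in aGVHD_V, and Lepr was at 0 there. The 6 endothelial markers summed to 57.4 against 11.2, 5 were at least 2-fold lower, and Cdh5, Kdr and Tek had no reads in the aGVHD_V library. B-lineage markers summed to 82.8 against 1.50, with all 8 measured ones lower. Conversely the 13 erythroid markers summed to 45081 against 166115, with 6 at least 2-fold higher, and 10 neutrophil markers to 15661 against 21160, none of them past 2-fold. The megakaryocyte and platelet markers summed to 77.9 against 272, with 4 of 5 measured ones at least 2-fold higher. T and NK cell markers summed to 53.7 against 103, with 2 of 7 measured ones at least 2-fold higher. Plasma cell markers summed to 59.2 against 40.9, with 3 of 6 measured ones at least 2-fold lower and 1 higher. Monocyte and macrophage markers summed to 1159 against 1259, with 1 of 7 at least 2-fold lower. The 3 pan-leukocyte markers summed to 208 against 289, none of them past 2-fold. Blood cell transcripts were thus abundant in both libraries despite the sort. Chaperone genes are active in nearly every cell type, and the part of these shifts in the values below was not tested.

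Heat shock proteins work as machines driven by ATP. HSP70 proteins grip short greasy stretches of unfolded chains, and DNAJ proteins (also called HSP40) deliver the chains and trigger ATP hydrolysis through their J domain. Nucleotide exchange factors, among them the HSP110 proteins, then reset HSP70. HSP90 matures signalling proteins such as kinases and steroid receptors, the HSP60 barrel with its HSP10 lid folds proteins inside mitochondria, and small heat shock proteins hold unfolded chains without ATP. Each compartment has its own set: the cytosol and nucleus, the endoplasmic reticulum (ER) and the mitochondrion. Developing red cells and antibody-secreting cells are known for heavy use of these systems, since both make very large amounts of few proteins.

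The summed level of the chaperone genes was nearly the same in both libraries: 3832 FPKM in BMT and 3864 in aGVHD_V, a ratio of 1.01, where the FPKM of all genes summed to a ratio of 1.49. Because of that second ratio, the result depends on the scaling. The ratio of the chaperone sums was 0.853 when all recovered reads set the library size and 0.675 with both libraries scaled to the same FPKM sum. Of the 72 genes, 61 were measured, meaning that at least 1 library reached an FPKM of 1. Another 5 had reads below that level and 6 had none in either library. Of the measured genes, 8 lay at least 2-fold lower on the log2(FPKM + 1) scale in aGVHD_V and 3 lay at least 2-fold higher, while 50 lay within 2-fold. The lower genes were 13.1% of the measured chaperone genes, where 19.4% of all measured genes were lower, and the higher genes were 4.92%, where 8.65% of all were higher. The median difference (aGVHD_V minus BMT) was -0.16 (95% interval over genes -0.27 to -0.01), and that of all measured genes was -0.07.

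The number of reads of a gene decides how far it can be read singly. A gene's reads were divided by the commonest number of reads that a detected gene had (14 in BMT, 44 in aGVHD_V), and 3 such counts, or 42 and 132 reads, were taken as the floor. All 8 lower genes were under the floor in the aGVHD_V library. Over the 45 chaperone genes at or above it in both libraries, none was at least 2-fold lower (3.08% of 7967 genes overall) and 2 were higher (4.76% overall; 7.83% in either direction), with a median difference of -0.10 (interval over genes -0.21 to 0.06) against 0.07 for all such genes. This subset leaves out genes that are near 0 in either library, so it cannot show losses that end there. Differences of all genes in it reached down to -4.48. Intervals of ratios below are exact binomial 95% intervals of the reads so divided, which cover counting error only. They left out a ratio of 1 for 6 of the 45 genes, all higher in the aGVHD_V library (3 of these turned lower with an equal FPKM sum), and overall did so upwards for 9.28% and downwards for 3.36% of genes.

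**Figure D1:**
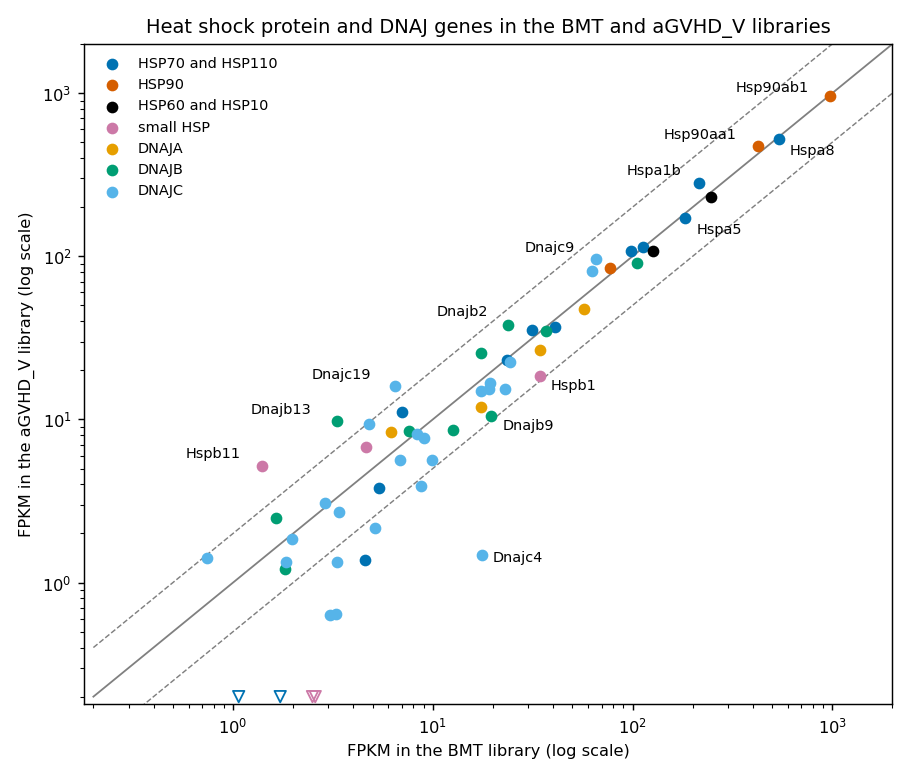
FPKM of the 61 measured genes in the BMT library (horizontal, log scale) and the aGVHD_V library (vertical, log scale), coloured by family; the solid line marks equal values, the dashed lines 2-fold, and open triangles at the lower edge are the 4 genes with no reads in the aGVHD_V library. Genes above an FPKM of 100 hug the line, while the scatter widens below an FPKM of 10, with Dnajc4 farthest from the line.

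HSP90 was the most abundant family, with 38.4% of the summed FPKM of all 72 genes in BMT and 39.4% in aGVHD_V. Hsp90ab1, the constitutive cytosolic HSP90 (ENSMUSG00000023944, chromosome 17, 45567775 to 45573271, minus strand, GRCm38), had an FPKM of 971 in BMT and 966 in aGVHD_V. It ranked 26th and 40th of all genes, and its ratio was 0.995 (interval 0.914 to 1.08). Its stress-inducible partner Hsp90aa1 (ENSMUSG00000021270, chromosome 12, 110690605 to 110702728, minus strand) had an FPKM of 423 against 472, a ratio of 1.12 (interval 1.001 to 1.24). That difference turned to the other side with an equal FPKM sum (-0.42) and with library sizes of all recovered reads (-0.08). Within a library, Hsp90aa1 stood at 0.436 of the level of Hsp90ab1 in BMT and 0.489 in aGVHD_V, a ratio that no scaling of a library changes. Hsp90b1, the ER form called GRP94, had an FPKM of 77.2 against 85.3 (ratio 1.10, interval 0.853 to 1.42).

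Among the HSP70 genes of the cytosol, Hspa8, the constitutive form HSC70 (ENSMUSG00000015656, chromosome 9, 40800984 to 40810087, plus strand), was the most abundant. Its FPKM was 540 in BMT and 522 in aGVHD_V, a ratio of 0.968 (interval 0.879 to 1.06). Hsp90ab1, Hspa8 and Hsp90aa1 together made up 50.5% of the summed FPKM of the 72 genes in BMT and 50.7% in aGVHD_V.

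The stress-inducible pair Hspa1a and Hspa1b was abundant in both libraries. Hspa1b (ENSMUSG00000090877, chromosome 17, 34956436 to 34959238, minus strand) had an FPKM of 214 against 283, a ratio of 1.32 (interval 1.11 to 1.56). Its neighbour Hspa1a (ENSMUSG00000091971, chromosome 17, 34969190 to 34972156, minus strand) had 98.6 against 108, a ratio of 1.10 (interval 0.838 to 1.42). The coding sequences have 1923 bases in Hspa1a and 1926 in Hspa1b. Compared position by position without alignment, they differ at 34 positions and are 98.2% identical. The longest identical run is 638 bases, so how reads were divided between the genes is uncertain. Their summed reads gave a ratio of 1.25 (interval 1.08 to 1.44), and the pair stood at 0.579 of the Hspa8 level in BMT and 0.748 in aGVHD_V. With an equal FPKM sum the differences of Hspa1b (-0.18) and Hspa1a (-0.45) lay below 0, and that of Hspa1a also with library sizes of all recovered reads, whereas the ratio to Hspa8 does not depend on scaling. Hspa1l, a testis form that lies 546 bases from Hspa1a on the opposite strand, had 32 reads in BMT and none in aGVHD_V.

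The remaining cytosolic HSP70 genes were lower in level. Hspa14, an atypical HSP70 that works at the ribosome, had an FPKM of 23.5 against 23.3 (ratio 0.991, interval 0.595 to 1.59). Hspa2, known from testis, had 4.55 against 1.38 on 146 and 39 reads. Hspa12b, an atypical relative found in vessel walls, had 77 reads (FPKM 1.72) in BMT and none in aGVHD_V. A count of 0 there allows up to 132 reads, so that difference was not detectable with this floor. Endothelial markers were lower beside it (57.4 against 11.2), and their part was not tested. Hspa2, Hspa12b and Hspa1l were the 3 of 13 measured HSP70 and HSP110 genes counted as at least 2-fold lower. Among all measured genes 19.4% were lower. Each of the 3 was under the floor in the aGVHD_V library, so that no ratio is given.

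The HSP110 genes, nucleotide exchange factors of HSP70, did not move together. Hspa4 had an FPKM of 40.9 against 36.6 (ratio 0.895, interval 0.641 to 1.23). Hsph1, the stress-inducible HSP105, had 31.5 against 35.3 (ratio 1.12, interval 0.829 to 1.50). Hspa4l, the third of them, had 7.01 against 11.05, a ratio of 1.58 (interval 1.002 to 2.43), and stayed above 0 in every scaling tried, down to 0.07. Over the 13 measured genes of the HSP70 and HSP110 family the median difference was -0.05, which turned to 0.00 or slightly above when only genes reaching an FPKM of 5 were kept, when genes at 0 were set to their floor, and over genes above the floor. The summed FPKM of the family was 1265 against 1311.

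**Figure D2:**
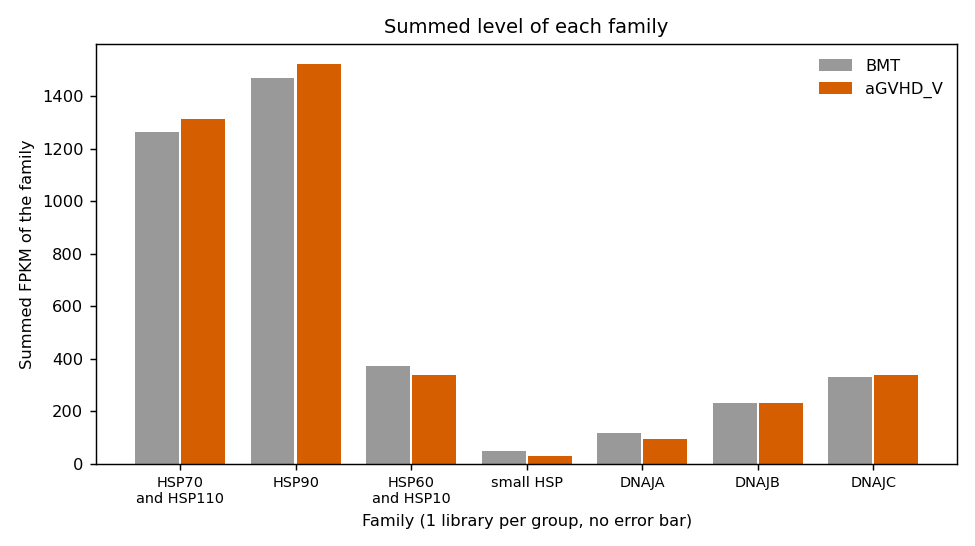
Summed FPKM (vertical axis, from 0) of each family in the BMT library (grey) and the aGVHD_V library (orange), 1 library each, without error bars. HSP90 (1471 against 1523) and HSP70 with HSP110 (1265 against 1311) dominate both libraries, and with an equal FPKM sum every aGVHD_V bar would stand below its BMT bar (ratios 0.441 to 0.694).

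Of the 13 ER genes, all measured, 12 had a difference below 0 in the aGVHD_V library, as did 6975 of all 12942 measured genes. The median was -0.36 (interval over genes -0.84 to -0.07), against -0.07 for all measured genes. On the log2(FPKM + 1) scale only Dnajc18 was at least 2-fold lower (19.4% of all measured genes were), at 3.06 against 0.635 on 192 and 35 reads. Dnajc16 (3.32 against 1.34) counted as within 2-fold only because 1 was added to FPKM (difference -0.88). The median stayed below 0 in all 11 alternative settings (-0.92 to -0.24). The scalings among these all moved values down, so they could not lift a median already below 0. No gene's interval among the 11 above the floor left out 1. Whether the ER genes differ from the others was not tested.

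Hspa5, the ER form of HSP70 called BiP (ENSMUSG00000026864, chromosome 2, 34771970 to 34777547, plus strand), had an FPKM of 184 against 172, a ratio of 0.935 (interval 0.787 to 1.10). Its DNAJ partners were next. Dnajb11 (ERdj3), which brings BiP to unfolded secreted proteins, had 36.8 against 35.0 (ratio 0.949, interval 0.599 to 1.46). Dnajb9 (ERdj4), a target of the unfolded protein response, had 19.7 against 10.5, a ratio of 0.535 (interval 0.195 to 1.23). Dnajc3 (p58IPK), a luminal BiP partner, had 23.0 against 15.4 (ratio 0.667, interval 0.387 to 1.09), and Dnajc10 (ERdj5), which reduces disulfide bonds, had 19.2 against 15.3 (ratio 0.795, interval 0.453 to 1.33). BiP itself and ERdj3 thus lay near equality, and the larger gaps were in the less abundant partners. Among the membrane forms, Dnajb12 had 12.6 against 8.63, Dnajb14 had 1.82 against 1.20 and Dnajc14 had 8.31 against 8.14. Hspa13, Dnajc1 and Dnajc16 were low in both libraries: Hspa13 (5.36 against 3.77), Dnajc1 (1.84 against 1.33) and Dnajc16 (3.32 against 1.34). Only Hsp90b1 lay above 0 among the ER genes, and it turned below 0 with an equal FPKM sum and with library sizes of all recovered reads.

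ER chaperone genes are known for an ER stress element in their promoters, and it is shown here because 3 of these genes carry it. The motif searched was CCAAT followed after 9 free bases by CCACG, on both strands, in RefSeq windows (GRCm38.p6) of 300 bases, 250 before to 50 after the start. It was found in 39 of 32851 windows (0.119%), in 0.137% of the 27025 genes with a window, and in 3 of the 58 chaperone genes with one: Hspa5, Hsp90b1 and Dnajc3. Capitals mark its fixed letters in the sites below. They are written 5′ to 3′ on the strand of the gene, from chr2:34772020-34772048 (plus) for Hspa5, and chr10:86705633-86705661 and chr10:86705528-86705556 (both minus) for the sites of Hsp90b1, the second of which is read on the other strand. The last is from chr14:118937822-118937850 (plus) for Dnajc3.
Hspa5: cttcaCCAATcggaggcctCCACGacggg
Hsp90b1, first site: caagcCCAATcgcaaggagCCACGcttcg
Hsp90b1, second site: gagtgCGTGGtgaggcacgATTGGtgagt
Dnajc3: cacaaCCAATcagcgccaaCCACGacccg
The site of Hspa5 ends 47 bases before the start and lies in an exon of another annotated transcript. Those of Hsp90b1 end 194 and 89 bases before its start, and that of Dnajc3 ends 87 bases before its start. The genes that share the motif had ratios of 0.935, 1.10 and 0.667, on either side of 1. The stretch before the start of Hsp90b1 that lies outside annotated exons (chr10:86705510-86705694, minus strand) shows the spacing of its sites.
Hsp90b1, upstream stretch: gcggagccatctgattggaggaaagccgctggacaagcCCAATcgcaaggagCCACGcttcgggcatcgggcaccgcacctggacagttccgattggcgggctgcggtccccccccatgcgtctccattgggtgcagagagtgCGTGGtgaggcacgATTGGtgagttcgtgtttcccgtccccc

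The mitochondrial set was abundant and stood close in both libraries. Hspd1, the HSP60 barrel (ENSMUSG00000025980, chromosome 1, 55077835 to 55088243, minus strand), had an FPKM of 246 against 229, a ratio of 0.933 (interval 0.773 to 1.12). Hspe1, its HSP10 lid (ENSMUSG00000073676, chromosome 1, 55088132 to 55091307, plus strand), had 126 against 107, a ratio of 0.852 (interval 0.582 to 1.22). The genes lie head to head and their bodies overlap by 112 bases on opposite strands. Hspd1 stood at 1.95 times the FPKM of Hspe1 in BMT and 2.14 times in aGVHD_V. Hspa9, the mitochondrial HSP70 mortalin, had 113 against 114 (ratio 1.01, interval 0.810 to 1.25). Its DNAJ partner Dnaja3 (TID1) had 17.3 against 11.9 (ratio 0.688, interval 0.329 to 1.31), and the gene Vasn lies inside Dnaja3 on the same strand with 458 and 39 reads of its own.

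Dnajc19, a J protein of the inner membrane tied to protein import, was the clearest exception. Its FPKM was 6.45 in BMT and 16.0 in aGVHD_V on 315 and 689 reads, a ratio of 2.49 (interval 1.22 to 4.96). Its gene body overlaps Fxr1 on the opposite strand (1130 and 1061 reads), and whether counting used strand is not stated. The related import gene Dnajc15 had 3.39 against 2.71, Dnajc11, of the cristae-organising complex, 9.05 against 7.67, and Dnajc30 5.11 against 2.15 on 103 and 38 reads. Over the 8 mitochondrial genes the median difference was -0.22 (interval over genes -0.96 to 1.19), with 6 below 0. None was at least 2-fold lower on the log2(FPKM + 1) scale, where 19.4% of all measured genes were. Dnajc30 fell short of that only because 1 was added to FPKM (difference -0.96). The median stayed below 0 in the 11 alternative settings, but the scalings among these all moved values down and could not lift it.

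The heat shock element, the site bound by the heat shock factor HSF1, is shown because the HSP60 and HSP10 genes share it. The motif searched was GAA, TTC and GAA with 2 free bases between neighbours, on both strands in the same windows. It occurred in 198 of the 32851 windows (0.603%), in 0.662% of the 27025 genes, and in 4 of the 58 chaperone genes with a window. Capitals mark its fixed letters. Hspd1 and Hspe1 hold the same bases (chr1:55088053-55088082) read on opposite strands, where overlapping copies of the motif form an uninterrupted run of 18 bases. Dnajb6 has its site at chr5:29735844-29735872 (plus strand), before the start. In Hsph1 it lies at chr5:149636280-149636308 (minus strand), just after the start.
Hspd1: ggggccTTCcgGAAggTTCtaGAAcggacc
Hspe1: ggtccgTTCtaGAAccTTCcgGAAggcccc
Dnajb6: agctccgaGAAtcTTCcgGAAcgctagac
Hsph1: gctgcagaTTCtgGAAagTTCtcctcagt
All of these sites lie in exons of some annotated transcript. The genes with this motif had ratios of 0.933, 0.852, 1.47 and 1.12, with no common direction. Windows of 14 of the 72 genes were not in the table, among them Hspa8, Hsp90aa1 and Hsp90ab1. Both motif searches required every fixed letter to match, so elements that differ at any of these letters were missed. Hspa1a, Hspa1b, Dnajb1 and Hspb1 had windows without an exact match, which does not show that they lack a heat shock element.

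**Figure D3:**
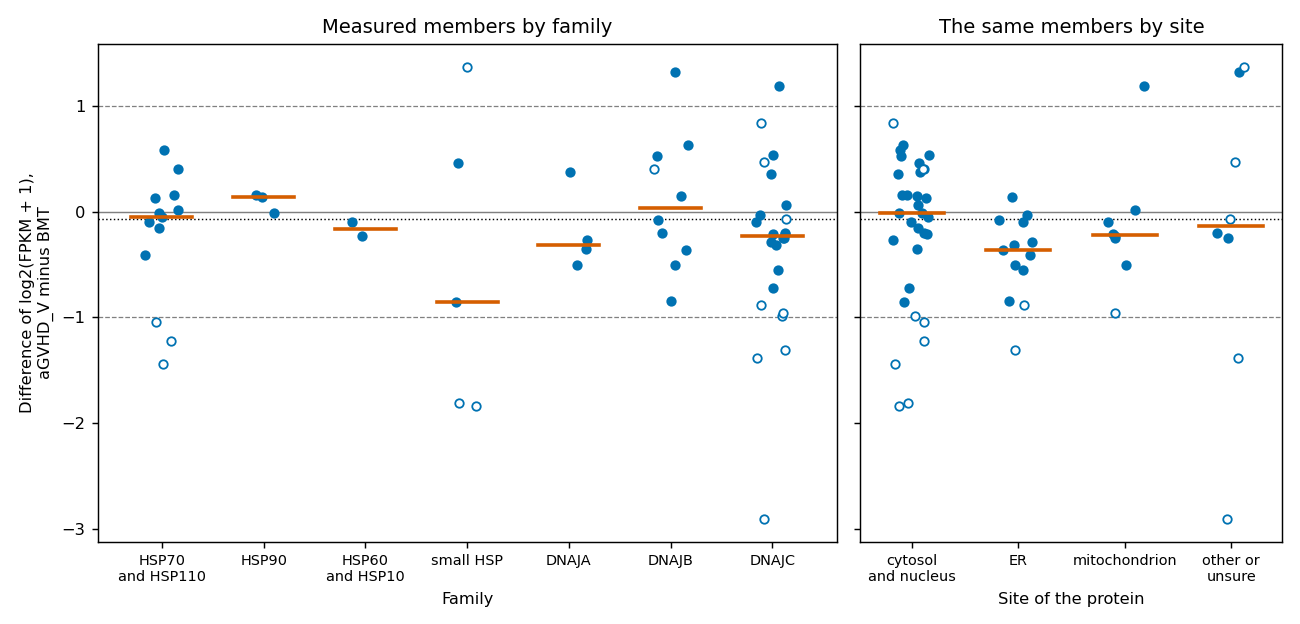
Difference of log2(FPKM + 1), aGVHD_V minus BMT (vertical), of the 61 measured genes by family (left) and by the site of the protein (right); filled points have reads at or above the floor in both libraries, open points do not, orange bars are medians, the dotted line is the median of all measured genes and dashed lines mark 2-fold. The ER genes sit mostly below 0, and the points below -1 are all open; medians of HSP90 and DNAJB turn below 0 with an equal FPKM sum.

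Small heat shock protein genes were few and low. Hspb1 (HSP27, which protects the actin skeleton) was the most abundant, with an FPKM of 34.2 against 18.5, a ratio of 0.539 (interval 0.155 to 1.44). Hspb6, a form of smooth and heart muscle, had 4.63 against 6.73 (ratio 1.45, interval 0.312 to 5.30). Hspb8, which acts with BAG3 in removing misfolded proteins, had 61 reads (FPKM 2.58) in BMT and none in aGVHD_V, and Hspb9, a testis form, had 22 reads and none. Neither gene reached 132 reads in BMT, so these differences were not detectable either. Hspb11, named with this family but better known as the ciliary transport protein IFT25, had 1.39 against 5.21 on 35 and 115 reads, under the floor in both. Hspb7 and Hspb2 had reads in BMT only, and Hspb3 had none. The family median of -0.86 over 5 genes turned to 0.46 when only genes reaching an FPKM of 5 were kept, where 3 genes are left, and to 0 when genes at 0 were set to their floor.

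The DNAJA genes are the general cytosolic partners of HSP70, apart from the mitochondrial Dnaja3. Dnaja2 had an FPKM of 57.4 against 47.4 (ratio 0.826, interval 0.552 to 1.20), and Dnaja1 had 34.4 against 26.7 (ratio 0.776, interval 0.571 to 1.04). Dnaja4 had 6.20 against 8.36 (ratio 1.35, interval 0.489 to 3.30). So 3 of 4 lay below 0, with a median difference of -0.31 (range -0.50 to 0.38), and no interval left out 1. The summed FPKM of the family was 115 against 94.4.

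The DNAJB genes went both ways, with 5 of 10 measured genes on each side of 0. Dnajb1, the stress-inducible HSP40 (ENSMUSG00000005483, chromosome 8, 83608193 to 83612653, plus strand), was the most abundant at an FPKM of 106 against 91.5, a ratio of 0.866 (interval 0.659 to 1.13). Dnajb2, which hands client proteins to the proteasome, had 23.9 against 37.7, a ratio of 1.58 (interval 1.05 to 2.32), and stayed above 0 in every setting. Dnajb6, a suppressor of protein aggregation, had 17.4 against 25.6 (ratio 1.47, interval 0.977 to 2.17) and turned below 0 with an equal FPKM sum. Dnajb4 had 7.56 against 8.52 (ratio 1.13, interval 0.625 to 1.94). Dnajb13, a protein of the sperm tail and cilia, had 3.32 against 9.78 on 110 and 285 reads, a ratio of 2.95 whose interval (0.873 to 9.56) included 1. It overlaps Ucp2 by 305 bases on the opposite strand, a gene with 11317 and 14569 reads. Dnajb3 (1.65 against 2.50) rested on 21 and 28 reads. The median difference of 0.04 turned below 0 in 6 of the 11 alternative settings, and the summed FPKM was 231 in both libraries.

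The DNAJC genes hold a J domain in otherwise unlike proteins. Dnajc9, a histone chaperone partner of the nucleus, was the most abundant, with an FPKM of 65.9 against 96.3, a ratio of 1.46 (interval 1.05 to 2.01), though its difference was -0.03 with an equal FPKM sum. Dnajc8, a splicing factor, had 63.0 against 81.2 (ratio 1.29, interval 0.915 to 1.79). Dnajc7, which binds both HSP70 and HSP90, had 24.3 against 22.6 (ratio 0.932, interval 0.585 to 1.44). Dnajc5, the cysteine string protein of vesicles, had 19.4 against 16.8 (ratio 0.866, interval 0.553 to 1.32). Dnajc2, a partner at the ribosome, had 17.5 against 15.0 (ratio 0.858, interval 0.485 to 1.44). Dnajc21, needed for ribosome maturation, had 9.94 against 5.62 (ratio 0.565, interval 0.205 to 1.30). These intervals include 1 except that of Dnajc9.

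At lower levels, Dnajc13 of endosomes had an FPKM of 6.85 against 5.60, and Dnajc6 (auxilin, which uncoats clathrin vesicles) had 2.90 against 3.08. Dnajc17, of the nucleus, had 4.79 against 9.39 on 76 and 131 reads, just under the floor in the aGVHD_V library. Dnajc24 (8.73 against 3.91) and Dnajc25 (1.98 against 1.84) also lay under it. The largest gap of all 61 genes was that of Dnajc4, at 17.7 against 1.48, but on 230 and 17 reads. Dnajc27 had 3.29 against 0.645 on 203 and 35 reads, and Dnajc28 0.740 against 1.42 on 32 and 54. In all, 18 of 24 measured DNAJC genes lay below 0, where 6975 of all 12942 measured genes did. Their median difference was -0.23 (interval over genes -0.73 to -0.03), against -0.07 for all genes. It stayed below 0 in all 11 alternative settings, but the scalings among these all moved values down and could not lift it. Its interval reached 0.36 when only genes reaching an FPKM of 5 were kept and 0.06 over genes above the floor. Dnajc12, Dnajb5 and Hspa12a stayed under an FPKM of 1, and Dnajb7, Dnajb8, Dnajc5b, Dnajc5g and Dnajc22 had no reads.

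**Figure D4:**
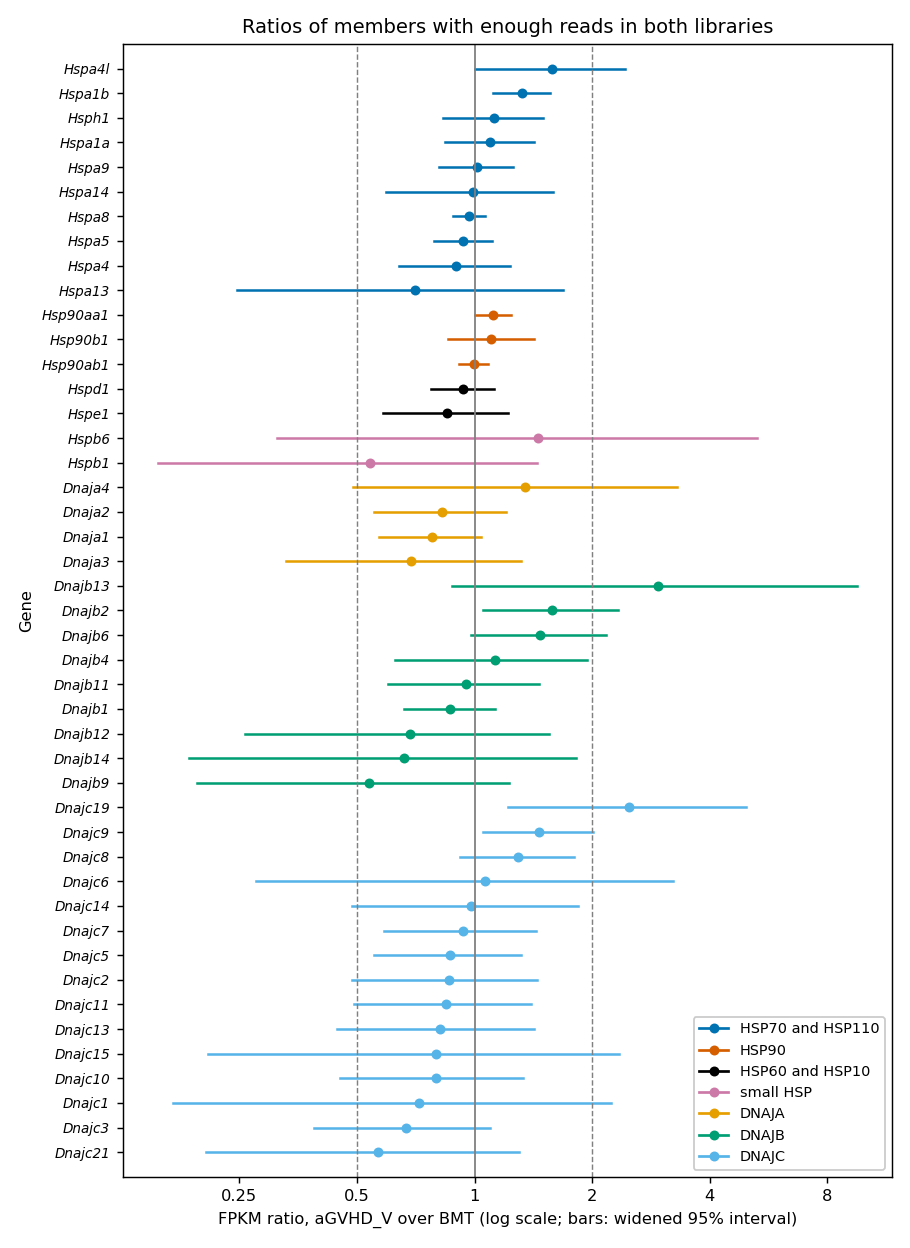
FPKM ratio, aGVHD_V over BMT (horizontal, log scale), of the 45 genes with reads at or above the floor in both libraries, 1 gene per line, coloured by family; bars are widened 95% intervals for counting error, and the lines mark 1 (solid) and 2-fold (dashed). Intervals left out 1 on the higher side for Dnajc19, Hspa4l, Dnajb2, Dnajc9, Hspa1b and Hsp90aa1; with an equal FPKM sum the differences of Dnajc9, Hspa1b and Hsp90aa1 fall below 0.

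The size of the difference depended on the level of expression. Of the 10 chaperone genes whose higher FPKM was 100 or more, none was at least 2-fold different in either direction, and the differences ran from -0.23 to 0.40. Among all 584 genes of that level 2.91% were lower and 12.2% higher. The median size of the difference was 0.11 for the chaperone genes and 0.38 for all genes at that level. At an FPKM of 10 to 100 it was 0.36 over 23 chaperone genes and 0.38 over all genes. At 1 to 10 it was 0.60 over 28 chaperone genes and 0.69 over all. Chaperone genes of the upper level thus lay closer to equality on the deposited scale than all genes there. The median difference at that level was 0.30 for all genes and -0.03 for the chaperone genes, and no test of that gap was made. A scaling moves both medians together, so which of them lies closer to 0 depends on the scaling. Across the 45 genes above the floor, Pearson's r of log2(FPKM + 1) between the libraries was 0.977 and Spearman's rho 0.958. Over all 7967 such genes they were 0.937 and 0.917, and genes are not independent replicates.

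**Figure D5:**
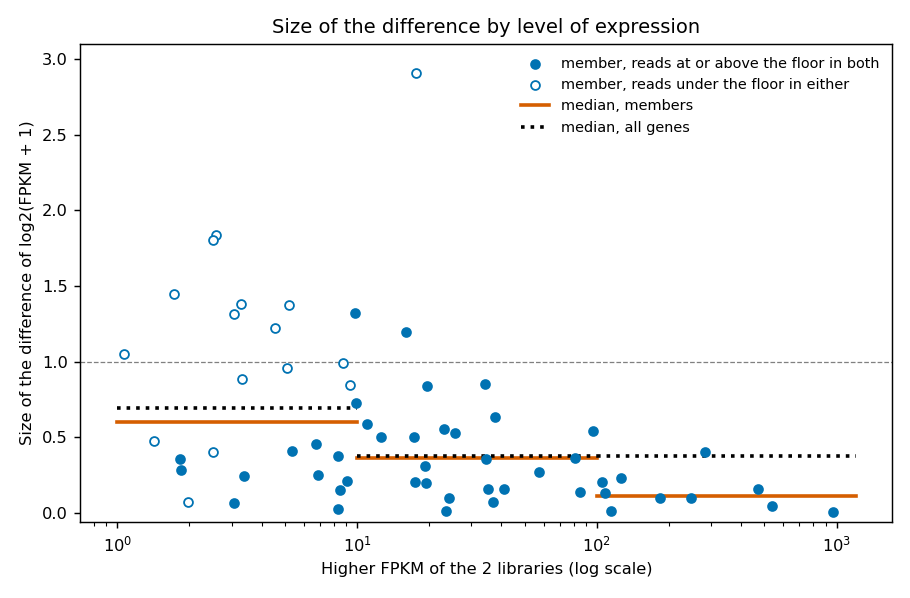
Size of the difference of log2(FPKM + 1) (vertical) against the higher FPKM of the libraries (horizontal, log scale) for the 61 measured genes; filled points have reads at or above the floor in both libraries, orange lines are medians of the chaperone genes and dotted lines those of all genes in 3 bins of level, and the dashed line is 2-fold. Above an FPKM of 100 the chaperone median is 0.11 and that of all genes 0.38 on the deposited scale, and both depend on the scaling.

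By site, the 32 measured genes of the cytosol and nucleus had a median difference of -0.01 (interval over genes -0.27 to 0.36), on either side of 0 depending on the filter. The ER median was -0.36 and the mitochondrial median -0.22, and the intervals of the 3 sites overlap. Summed FPKM of the cytosol and nucleus was 2855 against 2971, of the ER 396 against 358 and of the mitochondrion 526 against 492. The cytosol and nucleus thus held 74.5% of the summed FPKM in BMT and 76.9% in aGVHD_V, shares that no scaling of a library changes. Genes outside these sites or of unsure site numbered 11, of which 8 were measured.

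Genes that regulate or assist these chaperones were taken from lists of related genes. Hsf1, the heat shock factor, had an FPKM of 7.69 against 9.80 (ratio 1.27, interval 0.685 to 2.26), and Hsbp1, which binds it, 33.3 against 24.2 (ratio 0.727, interval 0.342 to 1.41). Of the other 4 genes on that list, Hsf2 stayed under an FPKM of 1 and Hsf4, Hsf5 and Hsbp1l1 had no reads. Of 13 nucleotide exchange factors and HSP70 partners 1 was at least 2-fold lower and none higher, where 19.4% of all measured genes were lower and 8.65% higher. Their median was -0.33 (interval over genes -0.89 to 0.23). The most abundant was Bag1 (156 against 185). Those with the largest gaps were the mitochondrial exchange factor Grpel2 (4.64 against 1.58), the ER exchange factor Sil1 (11.3 against 5.53) and the ubiquitin ligase Stub1 (40.5 against 21.4, ratio 0.529, interval 0.227 to 1.08). Sil1 counted as within 2-fold only because 1 was added to FPKM (difference -0.92).

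All 18 HSP90 co-chaperones had reads above the floor. All 18 lay within 2-fold on the log2(FPKM + 1) scale, where 7.83% of all genes above the floor did not. They lay 9 on each side of 0, with a median of 0.00 that changes sign in 7 of the 11 alternative settings. Stip1 (HOP), which links HSP70 to HSP90, had an FPKM of 98.4 against 102 (ratio 1.04, interval 0.752 to 1.41). Tomm34 had 11.4 against 5.21 (ratio 0.459, interval 0.113 to 1.32), Nudcd3 11.8 against 5.92 (ratio 0.503, interval 0.224 to 1.003) and Sugt1 6.40 against 3.37 (ratio 0.526, interval 0.190 to 1.22). The ratio of Tomm34 was past 2-fold, but its difference with 1 added to FPKM was -0.993. Genes of the CCT chaperonin, which folds actin and tubulin, and of its helper prefoldin had reads above the floor throughout. Of 14, 11 were above 0, where 4478 of the 7967 genes above the floor were, and 1 was at least 2-fold higher (4.76% of those genes). The list had a median of 0.22 (interval over genes -0.14 to 0.43), against 0.07 for those genes, that turned below 0 with an equal FPKM sum and with library sizes of all recovered reads. Cct2 had 184 against 200 (ratio 1.08, interval 0.878 to 1.33) and Cct6a 63.7 against 86.3 (ratio 1.36, interval 1.03 to 1.77). Among prefoldin subunits Pfdn5 had 55.1 against 99.0 (ratio 1.80, interval 1.15 to 2.76) and Pfdn4 5.76 against 13.5 (ratio 2.35, interval 0.849 to 6.11).

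Of 22 other ER folding genes 1 was at least 2-fold lower and none higher, where 19.4% of all measured genes were lower and 8.65% higher. Their median was -0.15 (interval over genes -0.34 to 0.16), with 14 genes below 0 and 8 above. The 1 gene past 2-fold on the log2(FPKM + 1) scale was Serpinh1 (HSP47, the collagen chaperone), with an FPKM of 75.3 against 5.61. Its ratio was 0.0744 (interval 0.0169 to 0.211). The mesenchymal markers, which include collagen genes, were lower beside it (629 against 32.7). Calreticulin (Calr) had 227 against 184, a ratio of 0.811 (interval 0.665 to 0.984), and Ero1lb 3.04 against 1.23 on 245 and 87 reads. Ero1lb (difference -0.86) and Sil1 (11.3 against 5.53, difference -0.92) counted as within 2-fold only because 1 was added to FPKM. Of 11 other mitochondrial chaperones and proteases 1 was at least 2-fold lower (Grpel2) and 1 higher, where 19.4% of all measured genes were lower and 8.65% higher. Their median was -0.21 (interval over genes -0.66 to 0.16). The higher one was Hscb, the J protein of iron-sulfur cluster assembly, with 19.0 against 57.7, a ratio of 3.05 (interval 1.32 to 6.91), beside the higher erythroid markers (45081 against 166115). Trap1, the mitochondrial HSP90, had 66.5 against 52.5 (ratio 0.790, interval 0.524 to 1.16). Pam16, another gene of the mitochondrial import motor, had 4.30 against 2.35 on 127 and 61 reads.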

How the data were processed

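RNA of sorted bone marrow stromal cells was sequenced in 1 BMT and 1 aGVHD_V library. Per the file headers, the authors deposited an FPKM value and a length in bases for each gene. EdgeR 3.18.1 and the builds GRCm38 and mm10 are named in the submitters' processing notes, while aligner, counter and strand setting are not stated in the sources used here. The table has 1 more per-sample column, which no label matches and which was left out. FPKM times gene length gave whole multiples of a fixed step for 100.0% of values above 0 (tolerance 0.05), so reads were recovered (10869191 and 11299834). These steps give library sizes of 12127105 (BMT) and 10661688 (aGVHD_V). The modal read number is the centre of the window of 7 read numbers, from 4 upwards, that holds the most genes.

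Differences are log2(FPKM + 1) in aGVHD_V minus BMT, which understates low genes; 2-fold means 1 on that scale. Ratios carry no pseudocount and are given only for reads at or above the floor in both libraries. Medians carry 95% order-statistic intervals over genes, or the range under 6 genes. With 1 library per group no test was made. Sites of proteins are textbook knowledge. 69 of 72 genes had identical positions in GENCODE M21. All 72 genes could be named. From each list of related genes the 3 with the largest difference and the most abundant were named, plus genes named to complete a count, chosen after their values were seen; 1 gene that this rule names is not reported here. Members and lists were chosen with earlier results of these data known. 9 alternatives were listed at the start (pseudocounts, scalings, filters, floors) and 2 were added after seeing the data. Scripts were tested on simulated data and run with Python 3.11.15, numpy 2.4.6, pandas 2.3.3, scipy 1.17.1 and matplotlib 3.10.9.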

Additional observations from a re-analysis of the deposited data

How the results depend on the processing

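The median gene among those reaching an FPKM of 1 in both libraries moved by -0.56 on the log2 scale when both were scaled to the same FPKM sum of 1000000 and by -0.22 when all recovered reads set the library size. The chaperone median stayed below the median of all genes in each of the 11 settings, by 0.01 to 0.17.

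The 8 lower genes became 19 of 66 with an equal FPKM sum and 13 of 62 with all recovered reads. These were 28.8% and 20.97% of the chaperone genes, where 38.4% and 23.5% of all genes were lower. The lower genes became 4 when genes at 0 were set to their floor (6.56%, all genes 7.63%). They became 1 with a pseudocount of 5 (1.64%, all genes 3.89%) and 1 when only genes reaching an FPKM of 5 were kept (2.17%, all genes 10.7%). With reads at or above the floor in both libraries 0 were left (all genes 3.08%). The 3 higher genes became 1 with an equal FPKM sum (1.52%, all genes 6.09%) and 0 with a pseudocount of 5 (all genes 2.75%). Lower genes made up 69.2% of all genes outside 2-fold, 86.3% with an equal FPKM sum, 58.6% with a pseudocount of 5, 58.2% among genes reaching an FPKM of 5, 56.7% with genes at 0 set to their floor and 39.3% over genes above the floor.

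With an equal FPKM sum the medians were -0.70 (all chaperone genes), -0.43 (HSP90), -0.74 (HSP60 and HSP10), -0.89 (DNAJA), -0.60 (DNAJB), -0.78 (DNAJC), -0.60 (cytosol and nucleus) and -0.92 (ER). For the lists they were -0.999 (HSF), -0.90 (exchange factors), -0.55 (HSP90 co-chaperones), -0.36 (CCT and prefoldin), -0.72 (other ER genes) and -0.78 (other mitochondrial genes). With all recovered reads they were -0.37 (all), -0.10 (HSP90), -0.41 (HSP60 and HSP10), -0.55 (DNAJA), -0.52 (HSF) and -0.38 (other ER genes). HSP60 and HSP10 moved to -0.23 with upper-quartile scaling. When hemoglobin, mitochondrial and ribosomal protein genes were kept out of the library size they moved to -0.25, and HSF to -0.51. The scalings act by their construction. FPKM of all genes summed to 340171 in BMT and 507958 in aGVHD_V, of which the 13 erythroid markers held 45081 and 166115. The cause of the unequal FPKM sums was not tested. For 54 single genes, 555 of 574 alternative values stayed within the widened interval, 19 left it and none past 2-fold changed sign. No paired analysis was possible because each group has 1 library.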

Other observations

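Of the 14 processed pseudogene rows with chaperone symbols, 12 had no reads in either library. Hspd1-ps3, a copy of the HSP60 gene, had 152 reads in BMT (FPKM 7.28) against 27 in aGVHD_V (FPKM 1.47), while Hspd1 itself had 7882 and 6464. Dnajc19-ps had 5 reads and 1. Reads of a processed pseudogene and of its parent gene may be confused where their sequences match. Among the measured chaperone genes, 19 overlap another gene that has reads, 16 of them one on the opposite strand.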
